A study of Mus musculus with 4 samples.

Results

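The genes described here are 37 genes of the fibroblasts of the brain's coverings, of the pericytes of its small vessels and of the collagen matrix that such cells lay down. They are 37 of the 18193 mouse genes that the arrays measured under a single gene symbol, and each is read by the brightest of its probe sets, that is, the one with the highest mean over all arrays. They comprise 11 collagens, 18 meningeal fibroblast genes and 6 pericyte genes, together with Cytl1 and Vasn, a pair of vessel-related genes outside those lists. All 37 were measured, and none lay within the range of the arrays' Bacillus controls, whose sequences are bacterial, in all pools.

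The study compared the prefrontal cortex of mice kept under repeated social threat with that of control mice (high and low threat in the labels), to find transcripts that differ with this environment. Each array, an Affymetrix mouse expression array, held total RNA pooled from 5 mice. There were 2 threat pools and 2 control pools, numbered 1 and 2 in each group, and what the numbers mark is not stated in the labels. These name no strain, sex or age. No genotype or transgene is named, so the mice differ, as far as the labels go, by environment alone.

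The meninges are the membranes around the brain, and their fibroblasts secrete collagens and small leucine-rich proteoglycans, carry transporters for amino acids and organic anions, and make retinoic acid. Pericytes sit on capillaries inside the tissue, under the basement membrane they share with the endothelium, and depend on PDGF-B from endothelial cells acting on the receptor PDGFRβ. A piece of cortex holds pericytes throughout, whereas meningeal fibroblasts lie on its surface and along the larger vessels that enter it.

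The tissue label was checked first. The 7 measured markers of cortical excitatory neurons, among them the vesicular glutamate transporter Slc17a7 and the kinase Camk2a, averaged 10.10 and 10.15 on the log2 scale in the threat pools and 10.10 and 10.25 in the control pools. None of the 7 was within the Bacillus range. Of 7 measured markers of skull bone and skeletal muscle, 4 were within it in all pools. Acta1 (8.02 to 8.18), Sp7 (5.70 to 6.07) and Ckm (4.83 to 5.29) were above it in all pools. Pearson correlations between arrays over all probe sets were 0.9942 to 0.9961, and array medians were 5.53 to 5.58. Values below are log2 expression, where 1 unit is a doubling of signal, and differences are given as threat minus control, or as pool number 1 minus number 2.

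Every one of the 18 meningeal fibroblast genes and every one of the 11 collagens had a lower mean in the pools numbered 1 than in the pools numbered 2. The median difference was -1.24 over the fibroblast genes and -0.59 over the collagens. Over the 6 pericyte genes it was -0.24. Threat and control pools differed less, with median differences of -0.28, -0.12 and -0.16 over the same 3 lists. Over all 45037 probe sets tested the medians were 0.01 for number 1 minus number 2 and 0.02 for threat minus control. In bulk tissue, fewer cells of a type and less RNA per cell cannot be told apart, and this holds for all values that follow.

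**Figure D1:**
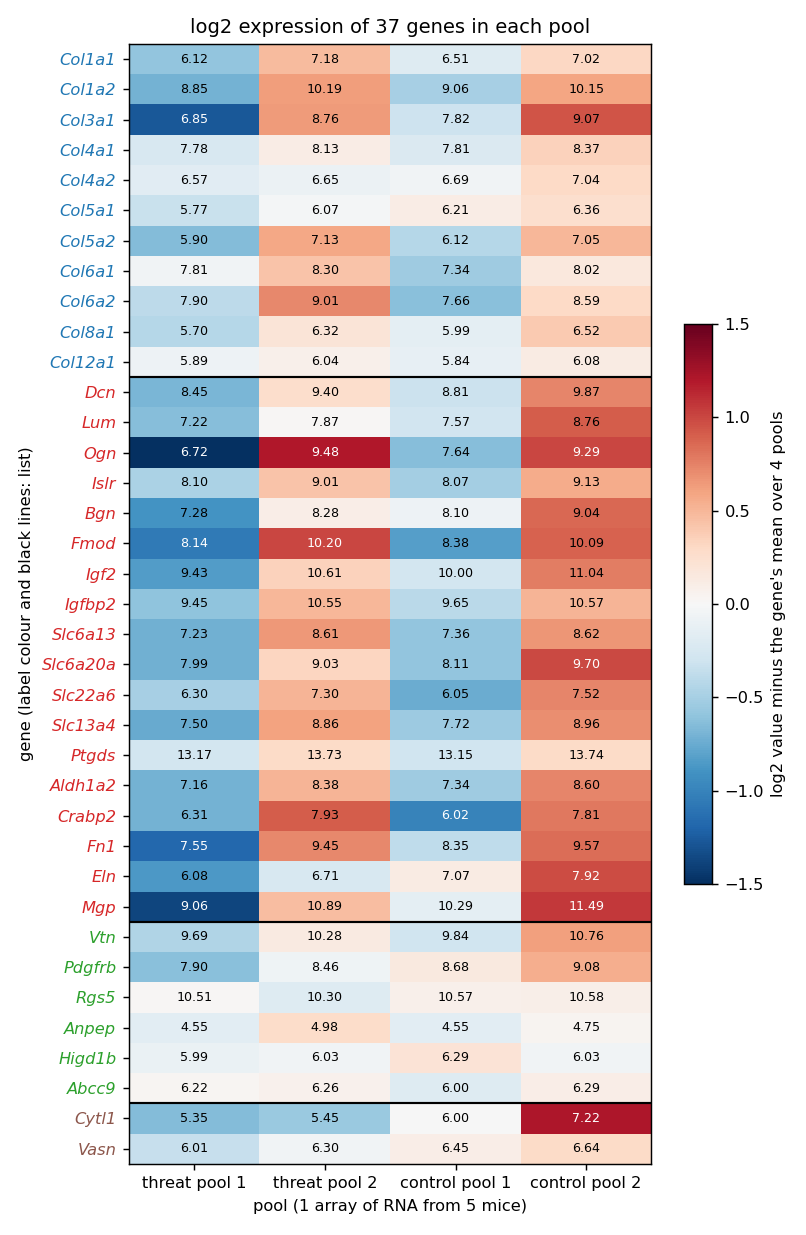
Log2 expression of the 37 genes (rows) in the 2 threat and 2 control pools (columns), with the value printed in each cell and the colour giving its deviation from the gene's mean over the 4 pools. Black lines separate collagens, meningeal fibroblast genes, pericyte genes and the pair Cytl1 and Vasn. Most fibroblast genes are blue in threat pool 1 and control pool 1 and red in both number 2 pools.

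Of the 5 chains of fibrillar collagens among the 37 genes, Col1a1, Col1a2, Col3a1 and Col5a2 had separate pools by number and Col5a1 did not. Col1a2, the second chain of type I collagen, had log2 values of 8.85 and 10.19 in threat pools 1 and 2, against 9.06 and 10.15 in control pools 1 and 2. Both number 1 pools were low and both number 2 pools high, and within a number the threat and control pools lay close together. The mean was 8.96 ± 0.15 in the number 1 pools and 10.17 ± 0.03 in the number 2 pools (SD, n = 2 each), a difference of -1.21 ± 0.12 (SE) or 2.31-fold, with an adjusted p of 0.096 in limma. Threat and control means were 9.52 ± 0.94 and 9.61 ± 0.77 (SD, n = 2 each), so that the spread within each group far exceeded the difference of -0.09 between them.

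Col3a1, which encodes the type III collagen of pliable tissues, had values of 6.85 and 8.76 in threat pools 1 and 2, against 7.82 and 9.07 in control pools 1 and 2. The order of the pools again followed the number, with threat pool 1 far below the rest. Number 1 minus number 2 was -1.58 ± 0.31 (SE), and threat minus control -0.64 ± 0.69. Within a number, threat minus control was -0.97 for number 1 and -0.31 for number 2. Without threat pool 1 the difference between threat and control was 0.31, and without control pool 2 it was -0.02. Either omission leaves the groups unequal in pool number, so these 2 values hold part of the difference by number. Col5a2, a chain of the type V collagen that starts fibrils, had values of 5.90 and 7.13 in the threat pools and 6.12 and 7.05 in the control pools. Its difference by number was -1.08 ± 0.12 and by threat -0.06 ± 0.47 (SE). Col1a1, the main chain of type I collagen, had values of 6.12 and 7.18 in the threat pools against 6.51 and 7.02 in the control pools, a difference by number of -0.78 ± 0.16 (SE).

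Col1a2 and Col3a1 are shown with the 250 bases before their transcription starts because they are the fibrillar collagens with the largest differences by pool number. Ogn, the fibroblast gene with the largest difference by number, and Rgs5, a pericyte gene whose pools did not separate by number, stand beside them. The sequences are from RefSeq on the mouse build GRCm38.p6 and run 5′ to 3′ along the gene's strand. Capitals mark matches on either strand to CCAAT (the CCAAT box), to TATAAA (the TATA box), to CACGTG (an E-box) or to GGGCGG (the SP1 GC box).
Col1a2, chr6:4505368-4505617 (+): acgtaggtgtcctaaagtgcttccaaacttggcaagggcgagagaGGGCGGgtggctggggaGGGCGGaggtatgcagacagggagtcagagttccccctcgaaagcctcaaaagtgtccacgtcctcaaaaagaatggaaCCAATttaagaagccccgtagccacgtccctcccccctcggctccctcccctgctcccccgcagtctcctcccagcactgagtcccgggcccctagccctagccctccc
Col3a1, chr1:45311288-45311537 (+): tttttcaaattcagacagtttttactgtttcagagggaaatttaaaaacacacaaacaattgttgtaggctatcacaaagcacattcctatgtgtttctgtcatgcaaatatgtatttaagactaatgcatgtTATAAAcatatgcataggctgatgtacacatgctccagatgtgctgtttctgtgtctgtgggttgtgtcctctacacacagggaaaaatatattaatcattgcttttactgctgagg
Ogn, chr13:49607765-49608014 (+): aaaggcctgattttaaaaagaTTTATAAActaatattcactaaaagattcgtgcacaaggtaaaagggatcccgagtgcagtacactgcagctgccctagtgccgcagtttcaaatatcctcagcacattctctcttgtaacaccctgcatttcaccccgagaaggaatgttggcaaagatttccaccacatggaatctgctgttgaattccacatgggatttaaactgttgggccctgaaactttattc
Rgs5, chr1:169655251-169655500 (+): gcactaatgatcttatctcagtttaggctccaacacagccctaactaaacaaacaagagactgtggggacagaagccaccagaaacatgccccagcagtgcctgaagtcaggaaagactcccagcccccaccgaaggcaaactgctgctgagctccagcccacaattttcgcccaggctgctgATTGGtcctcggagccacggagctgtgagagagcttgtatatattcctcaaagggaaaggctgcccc
Col1a2 had CCAAT starting 109 bases before its start and GGGCGG starting 205 and 188 bases before it. Col3a1 had TATAAA 117 bases before its start. Ogn had TATAAA 227 bases before its start and an overlapping match on the other strand at 229, and Rgs5 had CCAAT on the other strand at 67. Promoter windows were matched for 26 of the 37 genes, with 33 windows in all. CCAAT stood in 10 of the 33 windows and in 33.8% of all 32851 mouse windows of that length. TATAAA stood in 3 and in 12.4%, CACGTG in 1 and in 6.02%, and GGGCGG in 17 and in 32.7%. A match is a description of these letters and does not show a bound site.

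Col6a1 and Col6a2, chains of the type VI collagen that forms beaded filaments at the cell surface, had the largest differences towards threat among the 11 collagens. The third chain, Col6a3, stands on the list of other collagens, where it differed by -0.12 and was named after its value was seen. On that list 16 of 26 genes were lower in threat and 10 higher, where 46% of all probe sets were lower. The largest differences by threat there were those of Col4a5 (-0.67), Col18a1 (-0.49) and Col9a2, a cartilage collagen (0.47), and Col8a2 differed by 0.37. Col6a1 had values of 7.81 and 8.30 in threat pools 1 and 2 against 7.34 and 8.02 in control pools 1 and 2, and Col6a2 had 7.90 and 9.01 against 7.66 and 8.59. For both Col6a1 and Col6a2 each threat pool was above the control pool of its number, but threat pool 1 was below control pool 2, so the groups overlapped. Threat minus control was 0.37 ± 0.27 for Col6a1 and 0.33 ± 0.45 for Col6a2 (SE), with adjusted p of 0.623 and 0.801 in limma. Number 1 minus number 2 was -0.59 ± 0.19 and -1.03 ± 0.17 for the same genes (SE).

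The basement membrane chains Col4a1 and Col4a2 are transcribed from starts 21 bases apart on opposite strands of chromosome 8 in the same annotation. Col4a1 had values of 7.78 and 8.13 in the threat pools against 7.81 and 8.37 in the control pools, and Col4a2 had 6.57 and 6.65 against 6.69 and 7.04. The number separated the pools of Col4a1 (-0.45 ± 0.12, SE) but not those of Col4a2, in which both threat pools lay below both control pools by a mean of 0.25. Col5a1, another type V chain, had values of 5.77 and 6.07 in the threat pools against 6.21 and 6.36 in the control pools. Its groups did not overlap, and threat minus control was -0.36 ± 0.13 (SE, adjusted p = 0.459 in limma). Its second brightest probe set gave -0.07. Col8a1, a network-forming collagen of vessel walls, differed by -0.58 ± 0.14 between numbers (SE). Col12a1, which coats collagen fibrils, differed by -0.20 ± 0.10 (SE) by number and 0.00 by threat, while its second brightest probe set gave -0.86 by number and 0.45 by threat.

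The small leucine-rich proteoglycans bind collagen fibrils and set their spacing, and Ogn and Fmod among them had the largest differences by number of the 37 genes. Ogn (osteoglycin) had values of 6.72 and 9.48 in threat pools 1 and 2, against 7.64 and 9.29 in control pools 1 and 2. Both number 2 pools stood near the same level, and threat pool 1 was the lowest. The mean was 7.18 ± 0.65 in the number 1 pools and 9.38 ± 0.14 in the number 2 pools (SD, n = 2 each), which is 4.61-fold lower in number 1 and the largest difference among the 37 genes. A second probe set of Ogn gave -2.23 where the first gave -2.20.

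Fmod (fibromodulin) had values of 8.14 and 10.20 in the threat pools and 8.38 and 10.09 in the control pools. The pools of a number differed by 0.24 or less, and number 1 lay 3.69-fold below number 2 (-1.88 ± 0.13, SE, adjusted p = 0.0663 in limma). All 6 probe sets of Fmod gave differences by number between -1.17 and -1.88, while their differences by threat lay between -0.16 and 0.19. Dcn (decorin) had values of 8.45 and 9.40 in the threat pools and 8.81 and 9.87 in the control pools. Lum (lumican) had values of 7.22 and 7.87 in the threat pools and 7.57 and 8.76 in the control pools. In both genes the number 1 pools were lower and threat pool 1 lowest, with differences by number of -1.01 ± 0.20 for Dcn and -0.92 ± 0.29 for Lum (SE).

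Bgn (biglycan) had differences of similar size in both comparisons. It had values of 7.28 and 8.28 in threat pools 1 and 2, against 8.10 and 9.04 in control pools 1 and 2. Each threat pool was below the control pool of its number, yet threat pool 2 was above control pool 1. Threat minus control was -0.79 ± 0.42 and number 1 minus number 2 -0.97 ± 0.33 (SE). Its 3 probe sets gave -0.78 to -0.98 by threat. Islr, a marker of mesenchymal stromal cells with leucine-rich repeats, had 8.10 and 9.01 in the threat pools against 8.07 and 9.13 in the control pools, and differed by -0.98 ± 0.11 between numbers (SE).

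The transporters of the meningeal fibroblast list behaved alike. Slc6a13, which takes up GABA and taurine, had values of 7.23 and 8.61 in threat pools 1 and 2, against 7.36 and 8.62 in control pools 1 and 2. The pools of a number differed by at most 0.13, and number 1 was 2.50-fold below number 2 (-1.32 ± 0.11, SE, adjusted p = 0.074 in limma). The proline transporter Slc6a20a, the organic anion transporter Slc22a6 and the sulphate transporter Slc13a4 differed by -1.32, -1.24 and -1.30 between numbers. Between threat and control the differences of these 4 genes were -0.39 to 0.02.

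The retinoid genes gave the same order. Aldh1a2, which makes retinoic acid, had 7.16 and 8.38 in the threat pools and 7.34 and 8.60 in the control pools. Crabp2, which carries retinoic acid to the nucleus, had 6.31 and 7.93 in the threat pools and 6.02 and 7.81 in the control pools. Crabp2 was 3.25-fold lower in number 1 (-1.70 ± 0.14, SE, adjusted p = 0.0663 in limma), and each threat pool was slightly above the control pool of its number. The growth factor Igf2 had 9.43 and 10.61 in the threat pools and 10.00 and 11.04 in the control pools, a difference by number of -1.11 ± 0.23 (SE). Its binding protein Igfbp2 had 9.45 and 10.55 in the threat pools and 9.65 and 10.57 in the control pools, and differed by -1.01 ± 0.12 (SE). Ptgds, the prostaglandin D synthase of the meninges, which oligodendrocytes and choroid plexus also make, had 13.17 and 13.73 in the threat pools against 13.15 and 13.74 in the control pools. It was lower in number 1 by 1.49-fold, and threat and control means differed by 0.01.

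Among the remaining matrix genes of the fibroblast list, Fn1 (fibronectin) had values of 7.55 and 9.45 in the threat pools and 8.35 and 9.57 in the control pools. Mgp, an inhibitor of calcification made by vessel walls, had 9.06 and 10.89 in the threat pools and 10.29 and 11.49 in the control pools. For both genes the number 1 pools were low, by 1.56 ± 0.25 for Fn1 and 1.52 ± 0.40 for Mgp (SE), and threat pool 1 was the lowest pool. Mgp also differed by -0.91 ± 0.66 between threat and control (SE). Within a number, its threat minus control was -1.23 for number 1 and -0.60 for number 2. Without threat pool 1, which leaves the groups unequal in pool number, the difference was 0.00.

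Eln, which encodes the elastin of elastic arteries, departed from the rest of the fibroblast list. It had values of 6.08 and 6.71 in threat pools 1 and 2, against 7.07 and 7.92 in control pools 1 and 2. Both threat pools lay below both control pools, and within each group the number 1 pool was the lower. Threat minus control was -1.10 ± 0.33 (SE), or 2.14-fold, with a p of 0.0181 before adjustment and 0.436 after it in limma. A second probe set of Eln gave -0.59. Without control pool 2 the difference was -0.67, and without control pool 1 it was -1.53.

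Of the pericyte genes, Rgs5, a regulator of G protein signalling and a widely used pericyte marker, had values of 10.51 and 10.30 in threat pools 1 and 2, against 10.57 and 10.58 in control pools 1 and 2. The number 1 pools averaged 10.54 ± 0.04 and the number 2 pools 10.44 ± 0.20 (SD, n = 2 each), a difference of 0.10 with a 95% interval of -0.22 to 0.42. Threat minus control was -0.17, with an interval of -0.44 to 0.10. The other probe sets of Rgs5 gave -0.13 to 0.08 by number. Higd1b, another capillary pericyte transcript, had 5.99 and 6.03 in the threat pools and 6.29 and 6.03 in the control pools. Abcc9, a subunit of the potassium channels of pericytes, had 6.22 and 6.26 in the threat pools and 6.00 and 6.29 in the control pools. Their differences by number were 0.11 ± 0.13 for Higd1b and -0.16 ± 0.12 for Abcc9 (SE).

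Vtn (vitronectin), an adhesive glycoprotein made by brain pericytes, was the pericyte gene that differed most by number. It had values of 9.69 and 10.28 in the threat pools and 9.84 and 10.76 in the control pools, with -0.75 ± 0.18 by number (SE). Anpep, an aminopeptidase, was dim at 4.55 and 4.98 in the threat pools and 4.55 and 4.75 in the control pools, where the Bacillus control probe sets reached 4.25.

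Pdgfrb, the PDGF-B receptor, had values of 7.90 and 8.46 in threat pools 1 and 2, against 8.68 and 9.08 in control pools 1 and 2. The groups did not overlap, and threat minus control was -0.70 ± 0.23 (SE), or 1.63-fold, with a p of 0.0228 before adjustment and 0.444 after it in limma. Its second probe set did not show this difference, with values of 6.88 and 7.15 in the threat pools, against 6.88 and 7.14 in the control pools. Both probe sets had lower means in number 1, by 0.48 and 0.27.

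Cytl1, a small secreted protein, had values of 5.35 and 5.45 in threat pools 1 and 2, against 6.00 and 7.22 in control pools 1 and 2. Both threat pools were low and close together, while control pool 2 stood well above control pool 1. Threat minus control was -1.21 ± 0.38 (SE, adjusted p = 0.439 in limma), the largest by threat among the 37 genes, but it was -0.60 without control pool 2 and -1.82 without control pool 1. Vasn (vasorin), which binds TGF-β and is made by vascular smooth muscle, had 6.01 and 6.30 in the threat pools against 6.45 and 6.64 in the control pools. Its difference by threat was -0.39 ± 0.14 (SE), and its second probe set gave -0.91.

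Counted over the 37 genes, 35 were lower in number 1 than in number 2, where 45.6% of all probe sets were. The pools of 29 were separate, with both number 1 pools below both number 2 pools, against 14.4% of all probe sets. In 23 genes they were separate and at least 1.5-fold apart, against 0.879% of all. These were 16 fibroblast genes, 6 collagens and, among the pericyte genes, Vtn. An unadjusted p under 0.05 was reached by 27 genes in this direction (3.32% of all probe sets). No gene had an adjusted p under 0.05 in limma, the smallest being 0.0663, which was also the smallest over all probe sets.

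By threat, 29 of the 37 genes were lower than in controls, where 46% of all probe sets were. The pools of 8 genes were separate, all lower in threat, against 19.4% of all probe sets in that direction. They were Col4a2, Col5a1, Eln, Pdgfrb, Rgs5, Higd1b, Cytl1 and Vasn. For Higd1b threat pool 2 and control pool 2 were both 6.03 as printed, so its pools were separate only beyond those digits. Eln, Pdgfrb and Cytl1 were also at least 1.5-fold lower, as were 0.719% of all probe sets. Those 3 genes, Col5a1 and Vasn reached an unadjusted p under 0.05, against 5.73% of probe sets lower in threat at that level. No gene of the 37 had an adjusted p under 0.05 in limma, and the smallest was 0.436. With 2 pools a side, a gene whose pools are separate by number cannot be separate by threat, so the 29 and the 8 are different genes by construction.

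**Figure D2:**
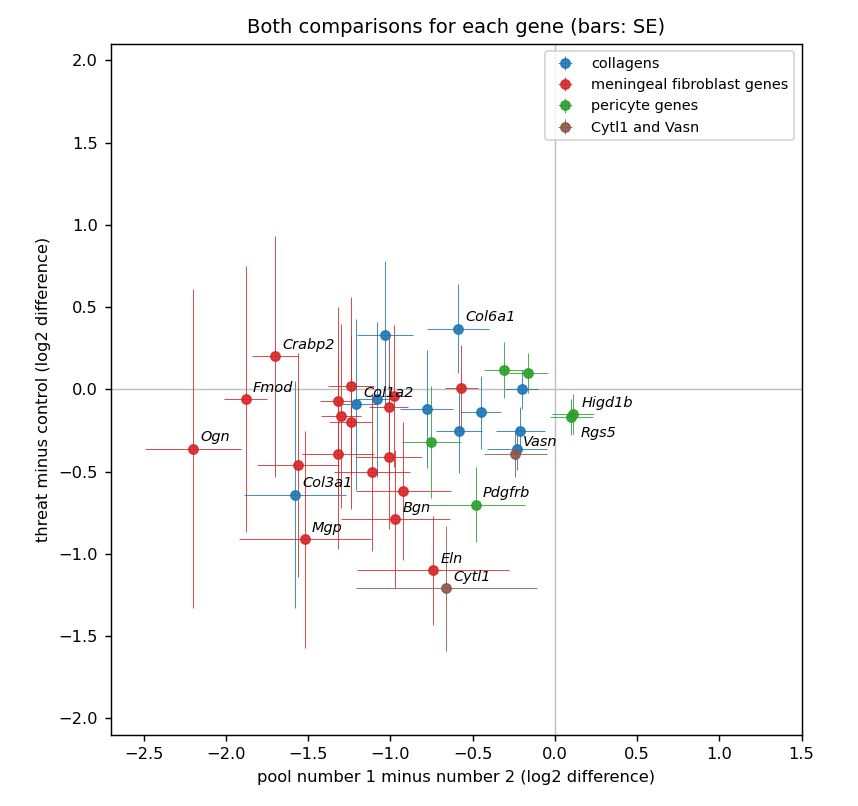
Difference between pools numbered 1 and 2 (horizontal) and between threat and control pools (vertical) for each of the 37 genes, in log2 units, with bars for the standard error of each difference. Fibroblast genes lie between -2.20 and -0.57 on the horizontal axis and collagens between -1.58 and -0.20, Eln and Cytl1 lie lowest, and Rgs5 and Higd1b lie near 0 on both.

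The difference by number was larger in size than the difference by threat in 29 of the 37 genes, against 44.0% of all probe sets. It was so in 17 of the 18 fibroblast genes, 9 of the 11 collagens and 3 of the 6 pericyte genes. The number was seen within each group alone. Between the threat pools, 23 genes were at least 1.5-fold lower in pool 1 than in pool 2, against 1.41% of all probe sets, and between the control pools 25 were, against 1.36%. Over the fibroblast genes the median difference was -1.13 between the threat pools and -1.21 between the control pools.

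Within a number, threat and control lay closer. In threat pool 1 against control pool 1, 8 of the 37 genes were at least 1.5-fold lower, against 1.51% of all probe sets. In threat pool 2 against control pool 2, 7 were, against 0.933%. The fibroblast medians for the same pairs were -0.23 and -0.17. Threat pool 1 was the lowest of the 4 pools in 28 genes and in 22% of all probe sets. Control pool 2 was the highest in 27 genes and in 20% of all probe sets. Without either of those pools the sign of the threat difference turned for the fibroblast genes and the collagens. Fibroblast medians were then 0.41 without threat pool 1 and 0.38 without control pool 2, and collagen medians 0.31 and 0.13. Leaving out a pool, here and for single genes above, makes threat and control unequal in pool number. Such values hold part of the difference by number and cannot show how stable the difference by threat is. Within numbers 1 and 2 the collagen medians, threat minus control, were -0.21 and -0.05, below 0 like those of the fibroblast genes.

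**Figure D3:**
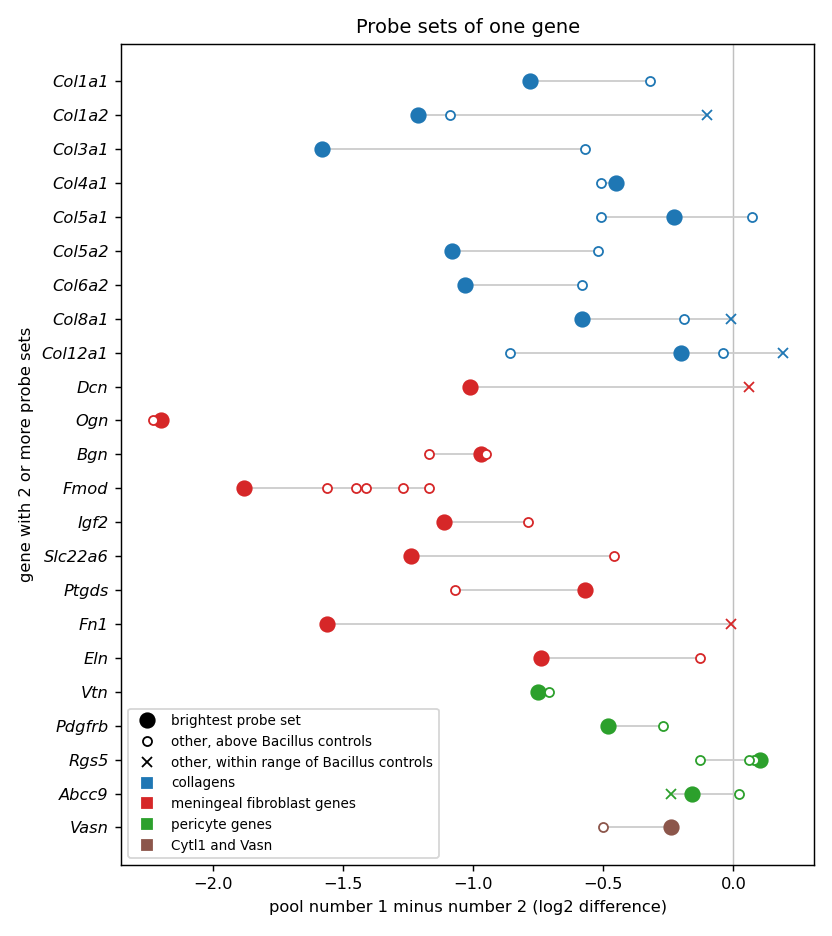
Difference between pools numbered 1 and 2 (log2) for every probe set of the 23 genes that have 2 or more, with the brightest as a filled point, the others as open points, and crosses for those whose mean lies within the range of the Bacillus controls. All probe sets of Fmod, Bgn and Ogn lie left of -0.9, and the crosses lie between -0.24 and 0.19.

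The 37 genes had 73 probe sets in all, with 14 genes read by 1 and 23 by more. Of the 36 probe sets other than the brightest, 30 had means above the Bacillus range, and 26 of those 30 were lower in number 1. Their median difference by number was -0.54, and 13 of them were separate and at least 1.5-fold lower. The 6 within the Bacillus range had a median of -0.01, among them the second probe sets of Dcn (0.06) and Fn1 (-0.01). For several genes the second brightest probe set differed in size from the brightest. By number it gave -0.57 for Col3a1, -0.52 for Col5a2, -0.58 for Col6a2, -0.32 for Col1a1, -0.19 for Col8a1, -0.46 for Slc22a6 and -1.07 for Ptgds.

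Other genes of the matrix and of the meninges were read from lists given in the same way. Over all probe sets, 45.6% were lower in number 1, and 0.879% were separate and at least 1.5-fold lower. Of 18 measured meningeal regulators and further meningeal genes, 17 were lower in number 1, with a median of -1.03, and 10 were separate and at least 1.5-fold lower. Slc47a1, an exporter of organic cations, had values of 6.31 and 8.60 in the threat pools and 6.07 and 7.86 in the control pools. Its difference by number was -2.04 ± 0.24 (SE). The coagulation regulator Thbd and the complement inhibitor Serping1 differed by -1.82 and -1.64. Foxc1, a transcription factor needed for the meninges to form, differed by -1.16 and was chosen for naming after its value was seen. Zic1, a transcription factor of the dorsal neural tube, was lower by threat instead (-0.89 ± 0.16, SE), with 9.18 and 9.60 in the threat pools against 10.38 and 10.18 in the control pools.

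Of 23 measured genes of matrix turnover and matrix partners, 21 were lower in number 1 and 9 were separate and at least 1.5-fold lower, with a median of -0.58. Omd (osteomodulin), a keratan sulphate proteoglycan, had 5.20 and 7.04 in the threat pools and 5.45 and 6.90 in the control pools, a difference of -1.65 ± 0.13 (SE, adjusted p = 0.0663 in limma). Nid1, which links laminin to type IV collagen, differed by -1.15 and thrombospondin Thbs1 by -1.08. Fbln5, which assembles elastic fibres, had 6.54 and 7.51 in the threat pools against 7.55 and 8.27 in the control pools, a difference by threat of -0.88 ± 0.37 (SE).

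Among 19 measured genes of collagen maturation, the median by number was -0.06. Those with separate pools at least 1.5-fold apart, here called past the rule of size, were Pcolce, an enhancer of procollagen cleavage (-1.40), the crosslinking oxidases Lox (-1.05) and Loxl1 (-0.83), and the collagen chaperone Serpinh1 (-0.69), the last named after its value was seen. Of 26 other collagens, Col4a5 (-0.98), Col8a2 (-0.95) and Col18a1 (-0.60) were past it, and the list's median was -0.08. Of 20 genes of PDGF and TGF-β signalling, the TGF-β receptors Tgfbr3 (-0.95) and Tgfbr2 (-0.62) and the ligand Pdgfd (-0.78) were past it, with a list median of -0.25. Of 11 further pericyte genes 2 were past it, Tbx18 (-1.18) and Ifitm1 (-0.87), and their median was -0.15. Tbx18 also stands on the meningeal list. By threat the medians of these 4 lists were between -0.09 and 0.01.

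**Figure D4:**
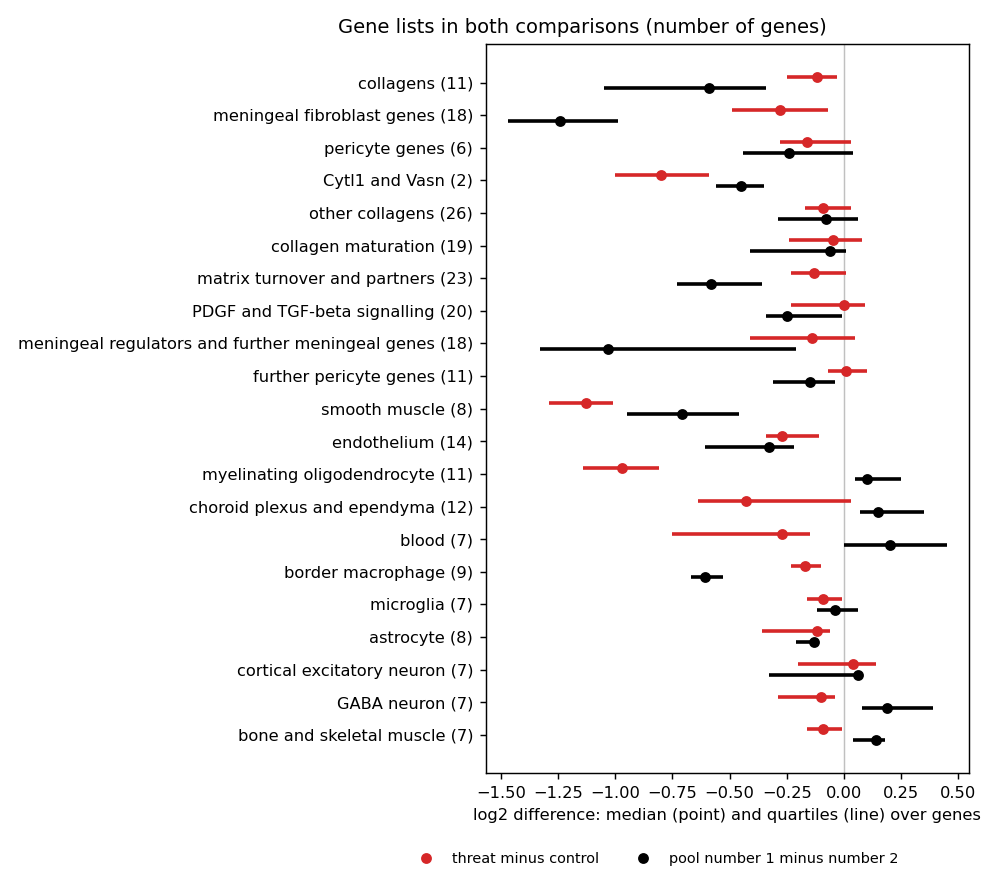
Median (point) and quartiles (line) of the log2 difference over the genes of each list, for threat minus control and for pool number 1 minus number 2, with the number of measured genes in brackets. Meningeal fibroblast and further meningeal genes lie lowest by number, and smooth muscle and myelin genes lie lowest by threat.

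Markers of other cell types moved beside these results, and their part in them was not tested. Of 9 border macrophage markers, cells that live in the meninges and around vessels, all 9 were lower in number 1 and 6 were separate and at least 1.5-fold lower, with a median of -0.61. Mrc1, the mannose receptor of these macrophages, differed by -0.94. The markers' summed linear signal was 569 and 901 in threat pools 1 and 2 and 616 and 1027 in control pools 1 and 2. The summed linear signal of the 18 fibroblast genes was 13618 and 25113 in the threat pools, against 15295 and 27887 in the control pools. Ptgds, the brightest of the 18 in every pool (13.15 to 13.74), made the largest part of that sum. Its difference by number (-0.57) was the smallest in size on the list, and other cell types also make it. Of 14 endothelial markers 13 were lower in number 1 with a median of -0.33, and the drug efflux pump Abcb1a (-1.17), the cadherin Cdh5 (-0.71) and Tek (-0.66), the last named after its value was seen, were past the rule of size. Medians by number were -0.04 over 7 microglial, -0.13 over 8 astrocyte, 0.06 over 7 cortical excitatory, 0.19 over 7 GABA neuron, 0.20 over 7 blood and 0.14 over 7 bone and muscle markers.

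Beside Eln, Pdgfrb, Cytl1 and Vasn, all 8 smooth muscle markers were lower in threat, and 7 of them were separate and at least 1.5-fold lower, with a median of -1.13. For this and the lists below, 46% of all probe sets were lower in threat, and 0.719% were separate and at least 1.5-fold lower. The summed linear signal of the smooth muscle markers was 1219 and 1755 in the threat pools, against 2514 and 5411 in the control pools. Acta2, smooth muscle actin, had 8.16 and 8.81 in the threat pools and 9.68 and 10.96 in the control pools. In Acta2 the number 1 pool was the lower one within each group, and the list's median by number was -0.71. Since all 8 markers were separate by threat, none could be separate by number. All 11 myelin markers were separate and at least 1.5-fold lower in threat, with a median of -0.97, and their median by number was 0.10. Of 12 choroid plexus and ependymal markers 8 were lower in threat and 4 higher, with medians of -0.43 by threat and 0.15 by number, and 4 of the 12 were within the Bacillus range in all pools. Ttr (-1.60), Tmem212 (-1.17) and Ccdc153 (-0.88) were past the rule of size by threat. Ttr, the defining choroid plexus transcript, had 6.15 and 6.18 in the threat pools and 9.05 and 6.48 in the control pools, so that control pool 1 stood apart. Of 14 endothelial markers 12 were lower in threat, with a median of -0.27, and Vwf (-1.08) and Pecam1 (-0.63) were past the rule of size. All 7 blood markers were lower in threat, with a median of -0.27, and S100a8 (-1.02), S100a9 (-0.89) and Alas2 (-0.61) were past it.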

How the data were processed

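RNA of mouse prefrontal cortex, pooled from 5 mice per array, was measured on 4 arrays. The values deposited by the authors are log2 expression per probe set, made with RMA per the submitters' processing notes (version and settings not stated there). RMA as usually run equalises the arrays' distributions, which hides a shift shared by most transcripts. Of 45101 probe sets, 64 controls were left out. The platform annotation gave 1 symbol to 34945, several to 932 and none to 9160, which are unnamed here. The members, lists, tests and alternatives were chosen with earlier results of these data known.

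Threat was compared with control, and pool number 1 with number 2, in limma 3.58.1 (R 4.3.3; lmFit and eBayes, 2-sided, Benjamini-Hochberg over all 45037 probe sets, 2 residual degrees of freedom). A rule of size asked for pools that do not overlap and a fold of at least 1.5. The median standard error was 0.108 by threat and 0.122 by number. Named genes were all 37 members and, of each other list, up to 3 with the largest difference in each comparison. The fit was tested on simulated data. The number of arrays limits the precision, and variation among the 5 mice of a pool cannot be seen. The labels do not tell whether pools came from separate cages or days, so p-values measure only the spread between these pools, which may be technical.

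Alternatives were the pool number (or group) as a further term, quantile, cyclic loess and median scaling, a trended or robust variance prior, filters on dim or cross-hybridising probe sets, other probe sets per gene, other folds and each pool left out. Promoters are those of RefSeq on GRCm38.p6. No build is named for the array, so probe sets have no coordinates here.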

Additional observations from a re-analysis of the deposited data

How the results depend on the processing

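The list medians by pool number stayed below 0 in all settings run, while those by threat turned for collagens and fibroblast genes when either of 2 pools (threat pool 1 or control pool 2) was left out. Without each pool in turn, the medians by number ranged from -0.73 to -0.58 for collagens, from -1.38 to -1.06 for fibroblast genes and from -0.18 to -0.16 for pericyte genes. The medians by threat ranged from -0.51 to 0.31, from -0.93 to 0.41 and from -0.14 to -0.01 for the same lists, with the turned signs without threat pool 1 (0.31 and 0.41) or control pool 2 (0.13 and 0.38). Members past the rule of size by threat were 6 to 21 without a pool and 5 at the lower of the other folds tried, against 3, and those with an unadjusted p under 0.05 were 0 to 6, against 5. A lone pool left in a group was assumed to vary like the other pools. Leaving out a pool also makes threat and control unequal in pool number, so each comparison then holds part of the other. The turned signs therefore cannot show how stable the difference by threat is.

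With all probe sets of a gene averaged, 3 members had an unadjusted p under 0.05 by threat, and the fibroblast median by number was -1.02. With the second brightest probe set, which exists for 23 genes, that count was 2 by threat and 16 by number. Members past the rule of size by number were 8. On the brightest probe set, 27 members had an unadjusted p under 0.05 by number and 23 were past the rule of size. Those counts are over all members, including genes with a single probe set, so the lower counts cannot show a drop between probe sets. The fibroblast median by number on the second brightest probe set was -0.79, also over fewer genes. On that probe set Pdgfrb gave 0.00 by threat and Dcn 0.06 by number, that probe set of Dcn lying within the Bacillus range. The pericyte median by number was -0.16 among bright probe sets and -0.15 without those ending in _x_at or _s_at. Members with an adjusted p under 0.05 by number were 11 after median centring, 7 with probe sets averaged, 2 with a robust prior, 2 without _x_at or _s_at and 1 with an intensity trend, against 0 as reported. Over all probe sets these counts were 55, 19, 9, 8 and 2, and 3 without threat pool 1. The scalings moved the median of all probe sets by less than 0.1.

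Over all probe sets, 374 were past the rule of size by threat and 454 by number. The counts were 3186 by threat and 2262 by number at the lower fold, 48 and 130 at the higher fold of 2, and 86 and 190 with probe sets averaged per gene.

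The pools share a number that the labels do not tie to animals, litters or days. Across all 45037 probe sets, control pool 1 minus control pool 2 correlated with threat pool 1 minus threat pool 2 at 0.33. With the pool number as a replicate block, 14 members had an unadjusted p under 0.05 by threat, 12 of them lower and Col6a1 and Col6a2 higher, where 13.4% of all probe sets did. Those lower included genes whose threat and control pools overlapped. Among these, Bgn differed by -0.79 ± 0.08, Igf2 by -0.50 ± 0.08, Dcn by -0.41 ± 0.08 and Mgp by -0.91 ± 0.18 (SE). The smallest adjusted p in limma was then 0.368 by threat and, with the group as a further term, 0.311 by number. Reading 4 arrays limits all of these values.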
